A study of Mus musculus with 6 samples.

Results

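The interferon-stimulated genes are genes that cells switch on when interferon, a secreted alarm signal of infection, reaches them. A set of 43 such genes was taken by gene symbol from the gene expression table, and 41 of them were among its 18121 genes. The GTPase genes *Mx1* and *Mx2* were not analysed here. All 41 passed the filter of the test, an average of 1 FPKM or more across 6 libraries, as did 10912 genes in all. FPKM (fragments per kilobase of transcript per 1000000 mapped fragments) is a level that is already divided by transcript length, so levels of different genes can be set side by side.

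The cells were mouse hematopoietic stem cells of the Lin-CD117+ type. They came from the bone marrow of young adult female C57BL/6 mice, first depleted of cells with mature lineage antigens and then enriched for CD117, the stem cell factor receptor encoded by *Kit*. The 3 Ctrl libraries were made from cells in normal culture. The 3 GA libraries were made from cells given glycyrrhizic acid, a saponin of licorice root, for 24 h. No engineered allele was named for either group, and the GA concentration of this experiment was not given in the sources used here. The selection on CD117 keeps progenitor cells of several lineages together with stem cells, and levels are averages over that mixture. The labels do not state whether the libraries of a group stem from different animals or different cultures. The p-values therefore cover the spread among these 6 libraries, which can be technical.

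Type I interferons bind a receptor built of IFNAR1 and IFNAR2. The kinases JAK1 and TYK2 then phosphorylate STAT proteins, which join IRF9 in the complex ISGF3 and bind a promoter element called the interferon-stimulated response element (ISRE). Interferon gamma acts at a different element, the gamma-activated site (GAS). In hematopoietic stem cells, interferons are known for driving dormant cells into the cell cycle, and stem cells are known to keep part of the interferon-stimulated program on without infection.

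The interferon-stimulated genes stayed close to their Ctrl levels after 24 h of GA. None of the 41 passed an adjusted p of 0.05 (limma on log2(FPKM + 1), two-sided, Benjamini-Hochberg over all tested genes), as none of the 10912 tested genes did (0%). The smallest adjusted p among them was 0.232, for the guanylate-binding protein gene *Gbp2*, and 0.135 over all tested genes. In log2 fold change of GA against Ctrl, 24 genes lay above 0 and 17 below, beside 5981 and 4931 of all tested genes. The median of the set was 0.02, beside 0.01 for all tested genes. That median was -0.03 after each library was rescaled to the same total, where the median of all tested genes was -0.04. On the log2(FPKM + 1) scale, the 95% interval of the fold change lay between -1 and 1 for all 41 genes. It lay within 0.5 of 0 for 40 of them. The exception was *Ifitm1*, whose interval reached 0.59, a fold of 1.51, while the lowest bound was -0.39 for *Ifit3*. The scale understates changes and intervals of low genes, and 13 genes of the set averaged under 5 FPKM. When 0.1 in place of 1 was added to FPKM, *Rsad2* was at 0.28 in place of 0.22. *Zbp1* was then at 0.23 in place of 0.15, and *Ifit3* at -0.11 in place of -0.07. In bulk RNA, fewer cells of a type and less RNA per cell cannot be told apart.

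At an unadjusted p under 0.05, 5 of the 41 genes were counted, all of them higher in GA, namely *Gbp2*, *Ifitm1*, *Ifi35*, *Ifnar2* and *Ifi27*. This share of 12.2% stands beside 8.88% of all tested genes higher and 4.63% lower at the same threshold. The count depended on single libraries, in the set as over all tested genes. In the set it was 3 without Ctrl replicate 1 and 2 without Ctrl replicate 2. It was 10 without GA replicate 1 and 9 without GA replicate 3. Over all tested genes the count was 897 to 2300 with 1 library left out, against 1474 with all libraries. In 5 genes (*Gbp2*, *Ifitm1*, *Ifi35*, *Ifnar2* and *Bst2*) every GA library was above every Ctrl library, against 11.6% of all tested genes. In no gene of the set was every GA library below every Ctrl library, against 8.29% of all tested genes.

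Letters of the elements through which interferon acts were found in part of the promoters of the set. A promoter entry of RefSeq (GRCm38.p6, 250 bases before to 50 bases after the start) was found for 33 of the 41 genes, and both strands were searched for the ISRE letters (GAAA, any 2 bases, then GAAA) and the GAS letters (TTC, any 3 bases, then GAA). The ISRE letters were present in 17 of the 33 (51.5%), against 3.99% of all 27025 genes with an entry. The GAS letters were present in 12 (36.4%), against 9.55%. Matches of the motifs overlapped in the entries of *Bst2* and *Ifitm3*. A match is a run of letters, not a measured binding site. The windows below are shown because they belong to genes whose values are described here. Their likeness follows from the letters searched for, and promoters without a match are not shown. Each is written 5′ to 3′ on the strand of its gene, with the matching letters in capitals, and TTTC, 2 bases and TTTC is the ISRE read from the opposite strand. The *Isg15* window (chr4:156200865-156200906, minus strand) holds 3 overlapping ISRE matches, and the *Ifit1* window (chr19:34640775-34640823, plus strand) holds 2 separate ones. The windows of *Rsad2* (chr12:26456553-26456582, minus), *Stat2* (chr10:128270266-128270295, plus), *Gbp2* (chr3:142620594-142620623, plus), *Ifitm2* (chr7:140955988-140956017, minus) and *Igtp* (chr11:58199512-58199541, plus) hold 1 ISRE match each. The *Irf1* window (chr11:53769914-53769942, plus) holds 1 GAS match.
*Isg15*: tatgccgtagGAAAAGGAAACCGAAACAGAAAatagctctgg
*Ifit1*: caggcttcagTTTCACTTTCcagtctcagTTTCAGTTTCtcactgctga
*Rsad2*: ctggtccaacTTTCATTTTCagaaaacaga
*Stat2*: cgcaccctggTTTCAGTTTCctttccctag
*Gbp2*: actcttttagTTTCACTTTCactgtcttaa
*Ifitm2*: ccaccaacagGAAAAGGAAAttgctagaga
*Igtp*: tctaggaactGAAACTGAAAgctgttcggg
*Irf1*: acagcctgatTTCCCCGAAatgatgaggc

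Both directions occurred with and without these letters. Of the 17 genes with ISRE letters, 9 had a higher mean in GA and 8 a lower one, with a median log2 fold change of 0.01. Of the 16 genes with an entry but no ISRE letters, 9 lay above 0 and 7 below, the median being 0.05. The 12 genes with GAS letters were divided 6 to 6 with a median of 0.02, and the 21 without them 12 to 9 with a median of 0.02. Apart from that with GAS letters, these divisions depended on GA replicate 1. Without that library they were 12 to 5 (median 0.05) with ISRE letters, 11 to 5 (0.07) without them and 17 to 4 (0.10) without GAS letters. All tested genes were then divided 7068 to 3844 (0.04), against 5981 to 4931 with all libraries. The genes with GAS letters stayed at 6 to 6 (0.01). The difference between genes with and without the letters was not tested. Among the genes printed above, *Ifit1* and *Gbp2* hold the same core letters TTTCACTTTC and lay on opposite sides of 0, at -0.12 (SE 0.08) and 0.25 (SE 0.07).

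Across the whole series, FPKM summed to 508672 to 511802 in the Ctrl libraries and 515444 to 555449 in the GA libraries, with the highest sum in GA replicate 1. GA replicate 1 stood apart by transcript length. The Spearman correlation of a gene's deviation from the Ctrl mean with transcript length was -0.59 over 10766 genes in that library, and replicates 2 and 3 of GA gave -0.31 and -0.18, against -0.06 to 0.07 in the Ctrl libraries. When GA replicate 1 was left out, 114 of the tested genes passed the adjusted threshold (1.04%), and none of them was in the set. At an unadjusted p under 0.05, 10 of the 41 genes were then counted, 9 higher and 1 lower, which is 24.4% beside 15% and 6.05% of all tested genes. The higher ones were *Cmpk2*, *Rsad2*, *Parp14*, *Ifitm1*, *Ifnar2*, *Oasl2*, *Isg15*, *Ifi35* and *Gbp2*, and the lower one was *Igtp*. The number of fragments per library was not recoverable from the values, so the depth is unknown.

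The GA libraries differed from each other in this set. The median deviation of its 41 genes from the Ctrl mean in GA replicates 1, 2 and 3 was -0.03, 0.07 and 0.04, on the log2(FPKM + 1) scale. For all tested genes the same medians were -0.04, 0.03 and 0.04. The number of genes above the Ctrl mean in the same order was 16, 30 and 29 of 41. Over all 10912 tested genes it was 4397, 6572 and 7024. GA replicate 1 was below all other libraries in 15 genes and above all others in 10. Over all tested genes these positions were taken by GA replicate 1 in 38.2% and 18.3%.

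**Figure D1:**
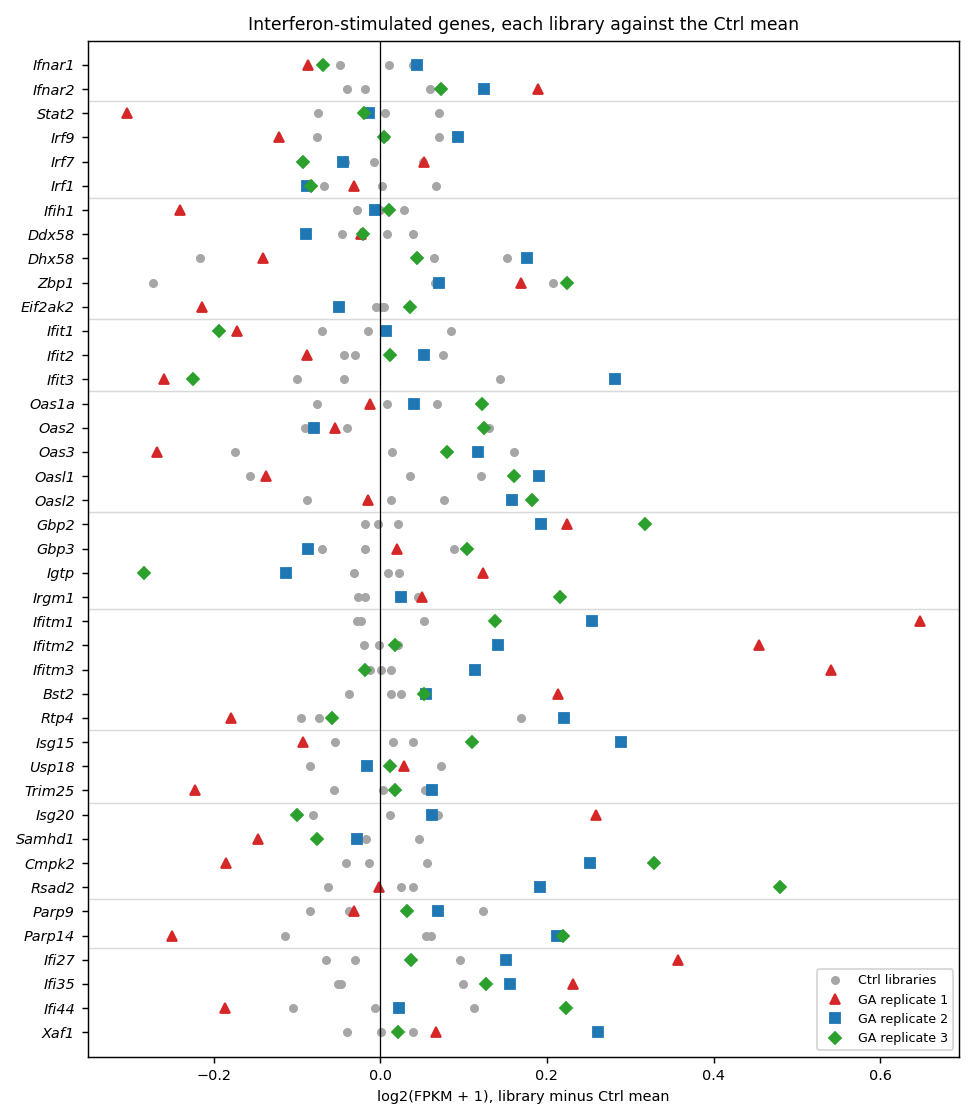
Deviation of each library from the Ctrl mean on the log2(FPKM + 1) scale (x axis) for the 41 interferon-stimulated genes, ordered by role (y axis). Gray points are the 3 Ctrl libraries, and the triangle, square and diamond are GA replicates 1, 2 and 3. GA replicate 1 lies far to the right for *Ifitm1*, *Ifitm2* and *Ifitm3* and to the left for many other genes, while the points of *Gbp2* lie to the right in all 3 GA libraries.

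The set was expressed at low to moderate levels, with a few abundant exceptions. The mean over 6 libraries was under 5 FPKM for 13 genes, 5 to 20 FPKM for 18 and at least 20 FPKM for 10. The median of these means was 8.55 FPKM, against 12.7 FPKM for all tested genes. *Ifi44* was just above the filter of 1 FPKM. The abundant genes were led by *Ifitm3*, *Ifitm2*, *Ifitm1* and *Igtp*.

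The interferon receptor subunits were both detected. *Ifnar1* measured 8.93, 8.34 and 8.73 FPKM in Ctrl replicates 1 to 3 and 8.10, 8.96 and 8.21 FPKM in GA replicates 1 to 3 (mean 8.67 ± 0.3001 and 8.42 ± 0.468 FPKM). The ranges overlapped, and the log2 fold change was -0.04 (SE 0.06, adjusted p = 0.858). *Ifnar2*, which encodes the subunit that binds interferon most tightly, measured 44.6, 44.0 and 47.2 FPKM in Ctrl and 51.7, 49.4 and 47.65 FPKM in GA (mean 45.3 ± 1.697 and 49.6 ± 2.03 FPKM). All 3 GA values were above the Ctrl values, the lowest of them by less than the spread within Ctrl, and the log2 fold change was 0.13 (SE 0.05, adjusted p = 0.311). About 8.51% of the 50-base stretches of *Ifnar2* transcripts also occur in the overlapping model *Gm21970*.

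All 4 transcription factors of the set had a mean below that of Ctrl, except that *Irf9* was at 0.05 without GA replicate 1. STAT2 and IRF9 are parts of ISGF3. *Stat2* measured 8.59, 7.67 and 8.17 FPKM in Ctrl and 6.40, 8.05 and 8.01 FPKM in GA (mean 8.14 ± 0.461 and 7.49 ± 0.941 FPKM), so the low value was that of GA replicate 1, and the log2 fold change was -0.11 (SE 0.09, adjusted p = 0.628). *Irf9* measured 15.5, 14.6 and 16.3 FPKM in Ctrl and 14.1, 16.6 and 15.5 FPKM in GA (mean 15.5 ± 0.831 and 15.4 ± 1.22 FPKM), with overlapping ranges. *Irf7*, a factor that amplifies interferon production and is itself strongly induced by it, measured 10.9, 10.2 and 10.5 FPKM in Ctrl and 10.9, 10.2 and 9.80 FPKM in GA (mean 10.5 ± 0.3799 and 10.3 ± 0.583 FPKM). *Irf1*, a factor directly induced by interferon gamma through GAS, measured 17.4, 15.8 and 16.6 FPKM in Ctrl and 16.2, 15.55 and 15.6 FPKM in GA (mean 16.6 ± 0.8201 and 15.8 ± 0.367 FPKM). The log2 fold changes of these 3 genes were -0.01, -0.03 and -0.07, all smaller than 2 standard errors. *Irf7* overlaps *Phrf1* on the opposite strand. As the strand setting was not given in the sources used here, reads of their overlap cannot be told apart. *Irf9* overlaps *Rnf31* on the same strand, where a strand setting does not separate reads. Models on the opposite strand also overlap *Irf1*, *Dhx58*, *Usp18* and *Ifi35*, among others.

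The nucleic acid sensors and effectors that recognize foreign RNA and DNA were near their Ctrl means. *Ifih1* and *Ddx58* encode the RNA sensors MDA5 and RIG-I, and *Dhx58* encodes their relative LGP2. *Ifih1* averaged 4.42 ± 0.105 FPKM in Ctrl and 4.15 ± 0.486 FPKM in GA (mean ± SD, n = 3 here and below). *Ddx58* averaged 8.78 ± 0.293 and 8.48 ± 0.254 FPKM, and *Dhx58* 5.73 ± 0.871 and 5.84 ± 0.747 FPKM. The double-stranded RNA kinase PKR, encoded by *Eif2ak2*, averaged 10.7 ± 0.0404 FPKM in Ctrl and 10.1 ± 0.963 FPKM in GA. *Zbp1*, a sensor of left-handed nucleic acids, averaged 1.99 ± 0.494 and 2.30 ± 0.177 FPKM. Of these 5 genes, 2 had a higher and 3 a lower mean in GA, with log2 fold changes from -0.08 to 0.15, and *Dhx58* was at -0.03 after rescaling to the same total. Leaving out GA replicate 1, 3 were higher and 2 lower, beside 7068 and 3844 of all tested genes.

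The IFIT genes, whose products bind viral RNA and block its translation, all had a mean below that of Ctrl, although the fold change of *Ifit2* was 0.01 after removal of the length trend. *Ifit1* measured 4.83, 5.49 and 5.06 FPKM in Ctrl and 4.43, 5.15 and 4.35 FPKM in GA (mean 5.13 ± 0.335 and 4.64 ± 0.441 FPKM). GA replicates 1 and 3 were below the Ctrl range and GA replicate 2 within it, and the log2 fold change was -0.12 (SE 0.08, adjusted p = 0.560). *Ifit2* averaged 5.83 ± 0.313 and 5.79 ± 0.338 FPKM, and *Ifit3* averaged 1.98 ± 0.268 and 1.88 ± 0.636 FPKM. Without GA replicate 1, the means of *Ifit2* and *Ifit3* were above those of Ctrl. *Ifit3* shares 51.2% of its 50-base stretches with its neighbor *Ifit3b*, and *Ifit1* shares 7.14% with *Ifit1bl2*, so their values are uncertain.

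The OAS genes encode oligoadenylate synthetases, which make the messenger that activates RNase L, together with the related proteins OASL1 and OASL2. *Oas1a* averaged 27.6 ± 1.43 FPKM in Ctrl and 28.6 ± 1.39 FPKM in GA, but it shares 57.6% of its 50-base stretches with *Oas1g*. *Oas2* averaged 3.26 ± 0.348 and 3.25 ± 0.334 FPKM, and *Oas3* 4.77 ± 0.666 and 4.69 ± 0.801 FPKM. *Oasl1* averaged 1.59 ± 0.250 and 1.73 ± 0.330 FPKM, and *Oasl2* 9.61 ± 0.604 and 10.4 ± 0.834 FPKM. The log2 fold changes of the 5 genes ran from -0.02 to 0.11, and 3 were above 0, of which *Oas1a* was at -0.01 after rescaling to the same total. Without GA replicate 1 all 5 were above 0, with a median of 0.10 beside 0.04 for all tested genes.

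The interferon-inducible GTPases attack the compartments in which bacteria and parasites live. *Gbp2* had the smallest p of the set. It measured 3.75, 3.83 and 3.70 FPKM in Ctrl and 4.56, 4.44 and 4.93 FPKM in GA (mean 3.76 ± 0.0656 and 4.64 ± 0.255 FPKM). All 3 GA libraries were above all Ctrl libraries by more than the spread within either group, and the log2 fold change was 0.25 (SE 0.07, 95% interval 0.09 to 0.40). The unadjusted p was 0.0052 and the adjusted p 0.232, so *Gbp2* was not called. It stayed at 0.25 without GA replicate 1 (adjusted p = 0.0975) and was 0.23 after removal of the length trend of every library (adjusted p = 0.354). Its relative *Gbp3* averaged 1.62 ± 0.148 FPKM in Ctrl and 1.64 ± 0.175 FPKM in GA.

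*Igtp*, which encodes the immunity-related GTPase IRGM3, was abundant and varied more in GA than in Ctrl. It measured 114, 117 and 118 FPKM in Ctrl and 127, 107 and 95.3 FPKM in GA (mean 116 ± 2.25 and 109.8 ± 15.9 FPKM). GA replicate 1 was above the Ctrl range and the other two GA libraries below it. The log2 fold change was -0.09 (SE 0.09, adjusted p = 0.711), -0.20 without GA replicate 1 (adjusted p = 0.0838) and 0.01 without GA replicate 3. *Igtp* shares 12.3% of its 50-base stretches with the overlapping gene *Irgm2*. *Irgm1*, which restrains the other immunity-related GTPases and is needed for normal stem cell renewal in mice, averaged 16.3 ± 0.479 FPKM in Ctrl and 17.5 ± 1.36 FPKM in GA, a log2 fold change of 0.10 (SE 0.06, adjusted p = 0.545).

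The IFITM genes, small membrane proteins that block virus entry, showed the highest levels in the set. *Ifitm1* measured 260.0, 246 and 247 FPKM in Ctrl and 393, 299 and 276 FPKM in GA (mean 251 ± 8.01 and 323 ± 62.2 FPKM). All GA values were above the Ctrl values, with GA replicate 1 far above the others, and the log2 fold change was 0.35 (SE 0.11, unadjusted p = 0.0102, adjusted p = 0.249). *Ifitm2* measured 481, 473 and 468 FPKM in Ctrl and 650.3, 523 and 480 FPKM in GA (mean 474 ± 6.68 and 551 ± 88.6 FPKM). The groups overlapped, since GA replicate 3 lay within the Ctrl range, and the log2 fold change was 0.20 (SE 0.09, adjusted p = 0.388). *Ifitm3* measured 769, 762 and 776 FPKM in Ctrl and 1120.2, 833 and 759 FPKM in GA (mean 769 ± 6.96 and 904 ± 191 FPKM). GA replicate 1 was the highest library and GA replicate 3 the lowest, and the log2 fold change was 0.21 (SE 0.12, adjusted p = 0.473).

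The 3 genes lie within one cluster on mouse chromosome 7 (GRCm38, positions 140954837 to 141010770), and their transcripts are short, 736 nt for *Ifitm1*, 655 nt for *Ifitm2* and 678 nt for *Ifitm3*. The 249 tested genes with transcripts of 600 to 800 nt had median deviations of 0.26, 0.12 and 0.07 in GA replicates 1, 2 and 3. Those of *Ifitm1* were 0.65, 0.25 and 0.14, those of *Ifitm2* 0.46, 0.14 and 0.02, and those of *Ifitm3* 0.54, 0.11 and -0.02. In GA replicate 1 all 3 genes were therefore above the median of genes of their length. Without GA replicate 1 the log2 fold changes were 0.20, 0.08 and 0.05. After the length trend was removed they were 0.21, 0.05 and 0.07, and with both changes *Ifitm1* was at 0.11 and *Ifitm2* and *Ifitm3* were below 0, at -0.01 and -0.04. *Ifitm2* shares 48.5% of its 50-base stretches with the model *Gm45717*, and *Ifitm3* shares 10.02% with *Gm7676*, so their levels are uncertain. The part of transcript length in the fold changes was not tested further.

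**Figure D2:**
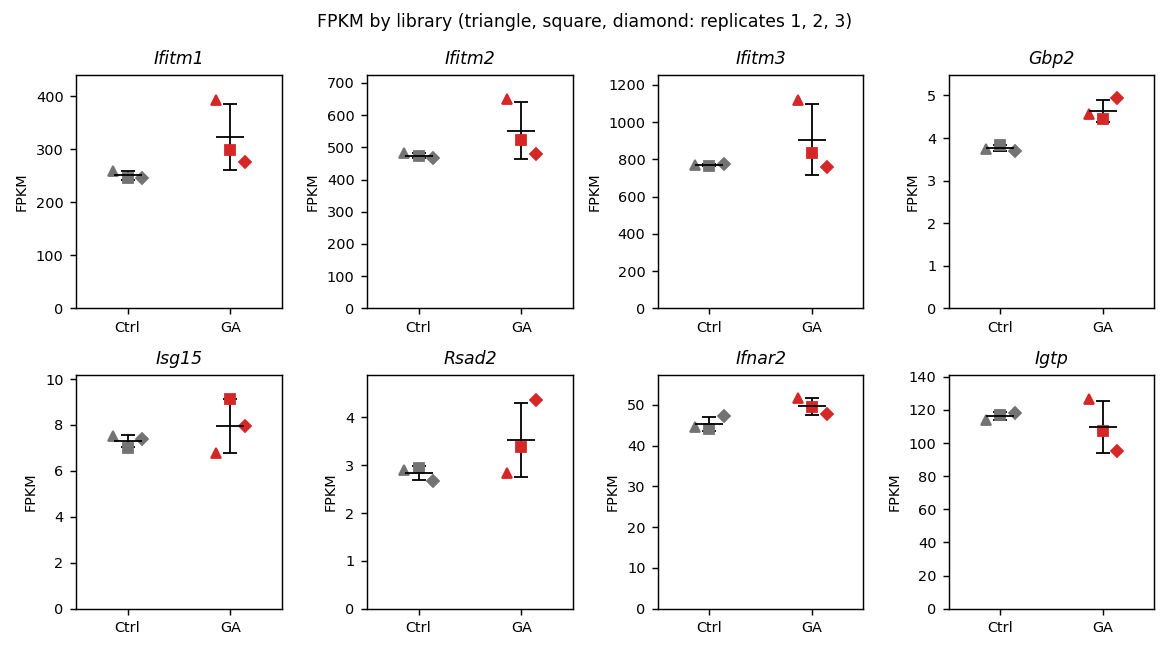
FPKM (y axis, from 0, on a separate scale for each gene) in each library of the Ctrl and GA groups for 8 interferon-stimulated genes. Triangles, squares and diamonds are replicates 1, 2 and 3, and the black bar and whiskers are the mean and SD of 3 libraries. The GA points of *Gbp2* all lie above the Ctrl points, whereas the spread of the 3 *Ifitm* genes in GA comes from replicate 1, and *Rsad2* is highest in replicate 3.

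The remaining membrane proteins were BST2 (tetherin), which holds budding viruses at the cell surface, and the receptor-transporting protein RTP4. *Bst2* measured 41.9, 40.4 and 42.3 FPKM in Ctrl and 48.3, 43.2 and 43.1 FPKM in GA (mean 41.5 ± 0.9696 and 44.9 ± 2.99 FPKM). The GA values were all above the Ctrl values, replicates 2 and 3 by less than the spread within Ctrl. Its log2 fold change was 0.11 (SE 0.05, adjusted p = 0.430) and -0.02 after removal of the length trend, its transcript being 792 nt long. *Rtp4* averaged 9.61 ± 1.11 FPKM in Ctrl and 9.61 ± 1.54 FPKM in GA, and it overlaps *Masp1* on the opposite strand.

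The ISG15 system consists of a ubiquitin-like tag, the protease that removes it and ligases that attach it. *Isg15* encodes the tag and is among the most inducible genes of the response. It measured 7.53, 6.99 and 7.39 FPKM in Ctrl and 6.78, 9.14 and 7.96 FPKM in GA (mean 7.303 ± 0.2802 and 7.96 ± 1.18 FPKM). GA replicate 1 was below the Ctrl range and the other two above it, and the log2 fold change was 0.10 (SE 0.09, adjusted p = 0.694), or 0.20 without GA replicate 1 (adjusted p = 0.146). *Usp18*, the protease and a brake on the receptor, averaged 8.26 ± 0.503 FPKM in Ctrl and 8.31 ± 0.146 FPKM in GA. *Trim25*, an E3 ligase that also assists RIG-I, averaged 16.7 ± 0.665 and 16.2 ± 1.77 FPKM.

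Among enzymes of nucleotides and nucleic acids, *Rsad2* and *Cmpk2* are neighbors on chromosome 12, and their products act in turn, CMPK2 making the CTP from which viperin, the product of *Rsad2*, forms a chain terminator. *Rsad2* measured 2.91, 2.95 and 2.68 FPKM in Ctrl and 2.84, 3.39 and 4.36 FPKM in GA (mean 2.85 ± 0.146 and 3.53 ± 0.7696 FPKM). *Cmpk2* measured 2.84, 2.59 and 2.66 FPKM in Ctrl and 2.25, 3.40 and 3.64 FPKM in GA (mean 2.697 ± 0.129 and 3.097 ± 0.743 FPKM). In both genes GA replicates 2 and 3 were above the Ctrl range and GA replicate 1 was not. The log2 fold change was 0.22 (SE 0.11, adjusted p = 0.432) for *Rsad2* and 0.13 (SE 0.12, adjusted p = 0.712) for *Cmpk2*. With GA replicate 1 left out, these were 0.34 (adjusted p = 0.103) and 0.29 (adjusted p = 0.0856).

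*Samhd1*, which encodes a dNTP hydrolase that starves viruses of nucleotides, had the smallest p among the genes with a lower mean in GA. It measured 50.4, 47.8 and 48.2 FPKM in Ctrl and 44.0, 47.8 and 46.25 FPKM in GA (mean 48.8 ± 1.41 and 46.02 ± 1.94 FPKM). The groups overlapped only in GA replicate 2, and the log2 fold change was -0.08 (SE 0.05, adjusted p = 0.484). *Isg20*, an RNA exonuclease, averaged 46.0 ± 2.44 FPKM in Ctrl and 48.7 ± 6.22 FPKM in GA.

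The ADP-ribosyltransferase genes *Parp9* and *Parp14*, whose products act together in interferon signaling of macrophages, averaged 8.07 ± 0.696 and 4.21 ± 0.352 FPKM in Ctrl and 8.21 ± 0.323 and 4.48 ± 0.961 FPKM in GA. *Parp14* was at -0.25 from the Ctrl mean in GA replicate 1 and at 0.21 and 0.22 in the other two, on the log2 scale. *Parp9* overlaps *Dtx3l* on the opposite strand, with which it shares a bidirectional promoter.

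The last 4 genes encode other induced proteins, and all had a higher mean in GA, except that *Ifi44* was at -0.01 after rescaling to the same total. *Ifi35*, which encodes a leucine zipper protein, measured 12.95, 12.99 and 14.5 FPKM in Ctrl and 15.97, 15.1 and 14.8 FPKM in GA (mean 13.5 ± 0.872 and 15.3 ± 0.612 FPKM). The groups did not overlap, although GA replicate 3 was close to Ctrl replicate 3, and the log2 fold change was 0.17 (SE 0.06, adjusted p = 0.281). *Ifi27* averaged 25.03 ± 1.54 FPKM in Ctrl and 28.6 ± 3.38 FPKM in GA, a log2 fold change of 0.18 (SE 0.08, adjusted p = 0.364) that was 0.09 without GA replicate 1. *Xaf1*, whose product promotes cell death by binding the inhibitor XIAP, averaged 5.43 ± 0.175 and 5.98 ± 0.629 FPKM. *Ifi44* averaged 0.983 ± 0.15 and 1.02 ± 0.285 FPKM.

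**Figure D3:**
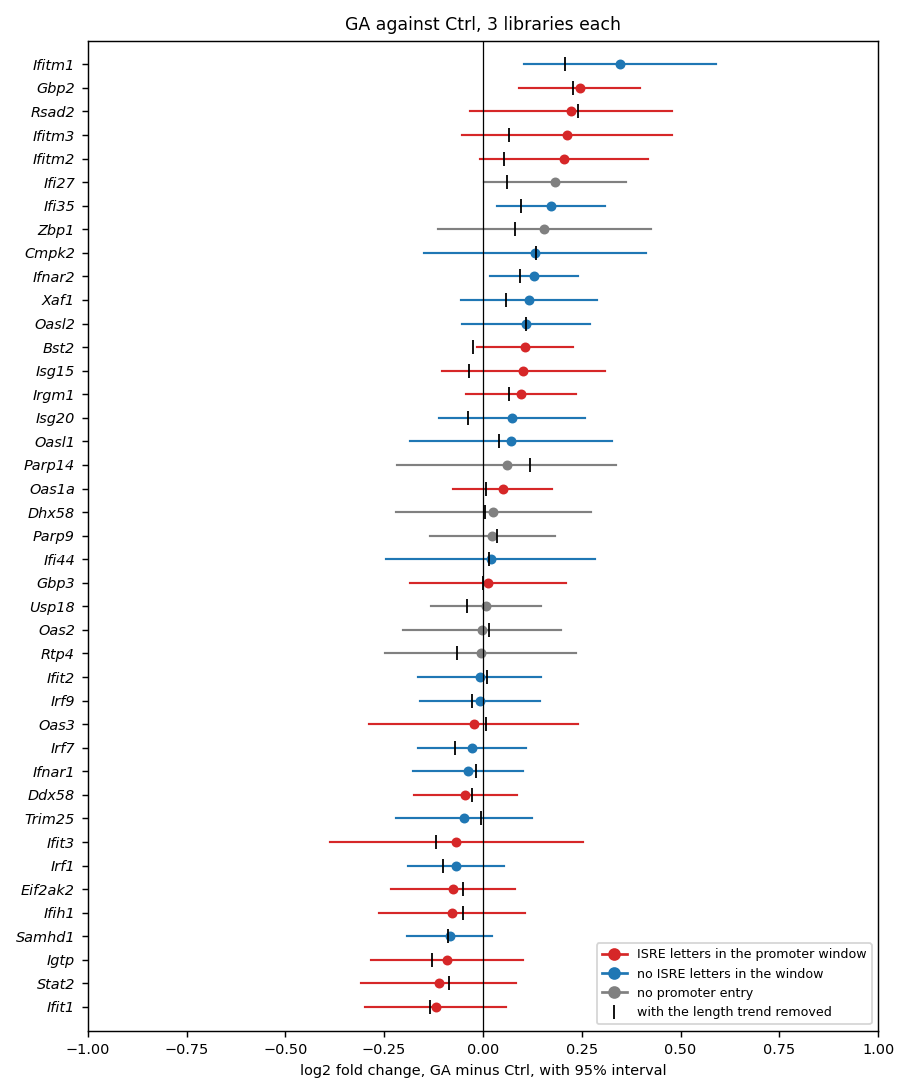
Log2 fold change of GA against Ctrl (x axis, limma, 3 libraries per group) with its 95% interval for the 41 interferon-stimulated genes (y axis). Colors give whether the ISRE letters are in the promoter window, and black ticks give the value after removal of the length trend. The intervals of 36 genes include 0, all lie between -1 and 1, and the red and blue points are mixed along the whole range.

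Transcript length moved with the values of the set in GA replicate 1. Over the 41 genes, the Spearman correlation of length with the deviation from the Ctrl mean was -0.70, -0.32 and 0.08 in GA replicates 1, 2 and 3. The points share a library and its base composition, and the correlation is given as a description. The 15 genes with transcripts under 2000 nt were higher in GA in 12 cases and lower in 3, with a median log2 fold change of 0.11. The 26 longer genes were divided 12 to 14 with a median of -0.01. With GA replicate 1 left out, the shorter genes were divided 12 to 3 (median 0.08) and the longer ones 18 to 8 (0.04). All tested genes were then divided 7068 to 3844 (0.04). After removal of the length trend both medians were 0.01. The bound of 2000 nt was chosen after the values were seen.

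**Figure D4:**
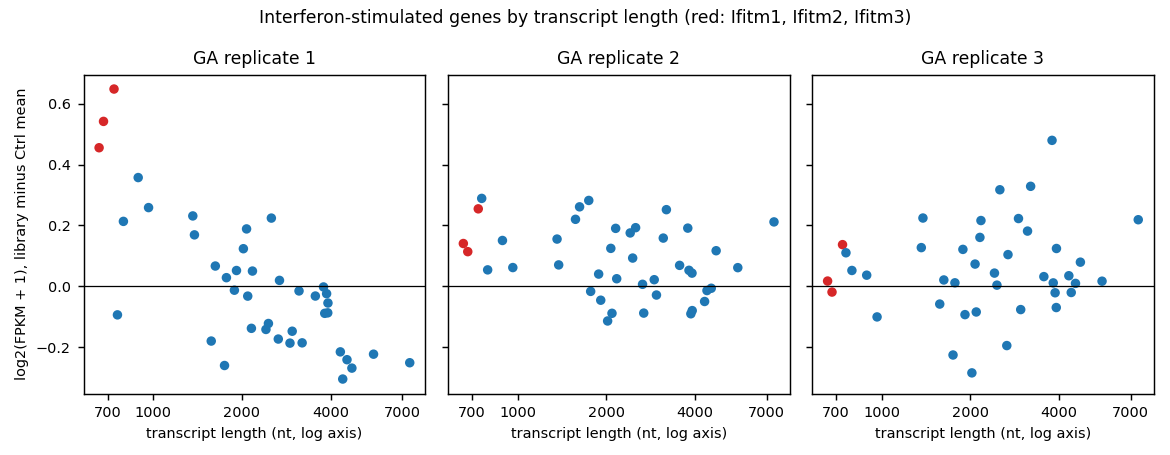
Transcript length in nt (x axis, log scale) against the deviation from the Ctrl mean on the log2(FPKM + 1) scale (y axis) for the 41 interferon-stimulated genes, with 1 panel for each GA library. Red points are *Ifitm1*, *Ifitm2* and *Ifitm3*. The points slope downward in GA replicate 1 (Spearman correlation -0.70), less in replicate 2 of GA (-0.32) and not in replicate 3 (0.08).

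The interferon genes themselves were at or near 0. Of 10 listed ligand genes, *Ifnb1* and *Ifne* were in the table, and neither reached the filter. *Ifnb1* was listed at 0 in 5 libraries and at 0.07 FPKM in Ctrl replicate 2. *Ifne* was at 0.08 FPKM in Ctrl replicate 1 and GA replicate 2 and at 0 in the others.

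The rest of the pathway, in lists that hold no gene of the set, was also without a gene that passed the adjusted threshold with 6 libraries. Of 17 tested genes of nucleic acid sensing and signaling, 6 had a higher and 11 a lower mean in GA, with a median log2 fold change of -0.03. Without GA replicate 1 they were divided 11 to 6 (median 0.04), beside 7068 to 3844 (0.04) for all tested genes. *Irf3*, the factor that starts interferon production, measured 28.7, 26.9 and 25.8 FPKM in Ctrl and 31.45, 28.9 and 31.5 FPKM in GA. Its GA values were all above the Ctrl values (log2 fold change 0.17, SE 0.06, adjusted p = 0.262). *Ticam1*, the adaptor TRIF of Toll-like receptors, averaged 16.5 ± 0.257 FPKM in Ctrl and 17.5 ± 0.702 FPKM in GA (log2 fold change 0.08, adjusted p = 0.537).

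Of 10 other receptors, kinases and transcription factors of the pathway, 2 lay above 0 and 8 below, the median being -0.07, or -0.02 without GA replicate 1. The kinase gene *Jak1* averaged 67.1 ± 1.01 FPKM in Ctrl and 62.6 ± 3.37 FPKM in GA (log2 fold change -0.10, adjusted p = 0.418). *Irf2*, a repressor at ISRE that protects stem cells from interferon in mice, averaged 31.3 ± 0.634 and 29.0 ± 1.78 FPKM (log2 fold change -0.11, adjusted p = 0.418).

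Of 14 inhibitors of interferon signaling, 5 lay above 0 and 9 below, the median being -0.05. At an unadjusted p under 0.05, 1 was higher and 3 lower (28.6%, beside 8.88% and 4.63% of all tested genes). Every GA library was below every Ctrl library in 5 of them and above in 1, beside 8.29% and 11.6% of all tested genes. The phosphatase gene *Ptpn11* measured 110.1, 115 and 109 FPKM in Ctrl and 98.4, 101 and 102 FPKM in GA. Its GA libraries were all below Ctrl (log2 fold change -0.15, SE 0.04, adjusted p = 0.238). *Ptpn2*, a phosphatase that acts on JAK1, averaged 19.7 ± 0.809 FPKM in Ctrl and 22.3 ± 0.888 FPKM in GA (log2 fold change 0.17, SE 0.05, adjusted p = 0.248), with all GA libraries above Ctrl. The phosphatase gene *Ptpn6* passed the threshold without GA replicate 1 (log2 fold change 0.21, adjusted p = 0.0463), a gene named after its values were seen.

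Of 81 other tested interferon-responsive genes, 50 were higher and 31 lower in GA, with a median log2 fold change of 0.03. At an unadjusted p under 0.05, 9 were higher and 1 lower (12.3%, beside 8.88% and 4.63% of all tested genes). Leaving out GA replicate 1, 58 had a higher and 23 a lower mean (median 0.07), beside 7068 and 3844 of all tested genes (0.04). At an unadjusted p under 0.05, 16 were then higher and 4 lower (beside 15% and 6.05% of all tested genes). *Plac8*, a gene of myeloid progenitors, measured 104, 91.3 and 98.4 FPKM in Ctrl and 111, 119 and 115 FPKM in GA. Its groups did not overlap (log2 fold change 0.23, SE 0.06, adjusted p = 0.202), and it was 0.09 after removal of the length trend. *Psmb8*, a subunit of the immunoproteasome, measured 45.8, 42.1 and 44.75 FPKM in Ctrl and 46.3, 54.1 and 53.7 FPKM in GA (log2 fold change 0.21, SE 0.06, adjusted p = 0.248). *Psmb8* passed the threshold without GA replicate 1 (log2 fold change 0.28, adjusted p = 0.0323).

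The cells carried the markers of their label, with a *Kit* level of 18.1 ± 1.29 FPKM (Ctrl) and 19.2 ± 2.77 FPKM (GA) and 17 of 18 stem and progenitor markers tested. Their summed level was 994 to 1008 FPKM in Ctrl and 996 to 1010 FPKM in GA. Markers of cells that could carry interferon-stimulated transcripts moved differently. All 12 tested neutrophil markers of 13 had a higher mean in GA, as did 5981 of all 10912 tested genes. All 12 were also higher without GA replicate 1 and after removal of the length trend. At an unadjusted p under 0.05, 8 of the 12 were counted (66.7%, beside 13.5% of all tested genes). Their summed level was 1675 to 1897 FPKM in Ctrl and 2069 to 2184 FPKM in GA, over all 13 markers. Of 17 tested monocyte and macrophage markers, 7 were higher and 10 lower (sums of 2760 to 3160 FPKM in Ctrl and 2950 to 3330 FPKM in GA). Without GA replicate 1 they were divided 13 to 4, beside 7068 to 3844 for all tested genes. Of 7 tested dendritic cell markers, 5 were higher and 2 lower (28.0 to 33.1 FPKM in Ctrl and 28.3 to 31.4 FPKM in GA). All 13 megakaryocyte and platelet markers were tested, 3 being higher and 10 lower in GA, with sums of 23259 to 23960.0 FPKM in Ctrl and 20784 to 28513 FPKM in GA, the highest sum being that of GA replicate 1. All 13 were lower without that library, as were 3844 of all 10912 tested genes, and all 13 were lower after removal of the length trend. Without GA replicate 1, 5 of these 13 markers passed the adjusted threshold. So did 3 of the 12 tested neutrophil markers, beside 1.04% of all tested genes. Of 7 tested erythroid markers, 3 were higher and 4 lower, with sums of 1275 to 1309 FPKM in Ctrl and 1096 to 1576 FPKM in GA. Of 15 T and NK cell markers 5 were tested, 4 higher and 1 lower, with sums of 345 to 356 FPKM in Ctrl and 349 to 389 FPKM in GA. Most of these sums came from *Lat* alone, at a mean of 297 FPKM in Ctrl and 303 FPKM in GA. Of 9 B cell markers 2 were tested, 1 in each direction, with sums of 6.56 to 6.80 FPKM in Ctrl and 6.67 to 7.78 FPKM in GA. The defining T cell genes *Cd3d* and *Cd3g* were at or near 0 in all libraries. The part of these cell types in the values of the interferon-stimulated genes was not tested.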

How the data were processed

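RNA from 6 samples was sequenced on a BGISEQ-500 instrument. The authors cleaned the reads, and, per the submitters' processing notes, used HISAT2 2.0.4 and Bowtie2 2.2.5 with mm10. The deposited values are FPKM, which the authors calculated with RSEM per the methods. The annotation, the strand setting and the length of reads are not given in the sources used here. As FPKM is divided by length, a library that favors short transcripts raises the values of short genes. Columns of the authors' group means were not used, and 0 per-sample columns had no matching sample.

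Samples were grouped by title. Genes that averaged 1 FPKM or more were fitted with limma 3.58.1 in R 4.3.3 (mean-variance trend, no block) on log2(FPKM + 1), a scale that understates the change of low genes. Adjusted p-values are Benjamini-Hochberg values over all tested genes. The fit was tested on simulated data. The share of low values within 0.15 of whole multiples of a step was 35.3% to 38.3%. The step was the best of many tried for each library, while 30% is the chance for a fixed step. The chance share of a best step was not computed. Even for the best step most low values lay off whole multiples, so fragment numbers could not be recovered and count tests were not applied. Positions, transcript lengths (10766 tested genes) and shared 50-base stretches were taken from GENCODE for GRCm38 (the same assembly as mm10), and promoters from RefSeq. For the length alternative, a loess curve (span 0.5) on log2 length was removed from each library.

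The genes of the set and all lists were chosen with earlier results of these data known. Group means were given for every gene of the set. Values of every library were given for the 2 genes of smallest p on either side of 0, genes whose groups did not overlap, the 5 most abundant genes, the receptor subunits, *Stat2*, *Irf9*, *Irf7* and *Irf1*. From each further list, the 2 genes of smallest p were named. One further gene of the naming rule is not reported here. *Isg15*, *Rsad2*, *Cmpk2*, *Ptpn6* and the library values of list genes were added after their values were seen. Alternatives were a pseudocount of 0.1, no filter, rescaling to 1000000, median of ratios, the length trend, a replicate block, each library left out, and GA replicate 1 left out with the length trend removed.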

Additional observations from a re-analysis of the deposited data

How the results depend on the processing

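No gene of the set passed the adjusted threshold under any of the 13 alternatives, where the smallest adjusted p of the set was 0.0639 (*Igtp*, without GA replicate 1 and with the length trend removed). Of the 41 genes, 18 kept the sign of their fold change in all of them (11 higher and 7 lower in GA, *Gbp2* among the former at 0.21 to 0.27 with 1 library left out), and the sign turned in 57 of 533 gene and alternative combinations. With 1 library left out, the tested genes that passed numbered 0 to 114 and those at an unadjusted p under 0.05 numbered 897 to 2300, against 0 and 1474 with all libraries. For the set the latter count was 2 to 10 and the median log2 fold change 0.00441 to 0.0794, against 5 and 0.0232. All 114 depend on leaving out GA replicate 1, and the cause was not tested. Rescaling to the same total gave 3 genes that passed, none in the set, 2 of the set at an unadjusted p under 0.05, and medians of -0.111 for the inhibitors and -0.0243 for the other interferon-responsive genes. It turned the division at an unadjusted p under 0.05 from 969 higher and 505 lower to 295 and 860, while median of ratios gave 788 and 648 (3 of the set) and removal of the length trend 434 and 546 (980 in all, 3 of the set). Leaving out GA replicate 1 and removing the length trend gave 115 genes that passed, 706 higher and 1056 lower at an unadjusted p under 0.05, and 9 of the set. Samples of the same number did not deviate together (correlations -0.169, -0.13 and 0.004), and with the replicate number as a block 0 genes passed, 796 were higher and 381 lower at an unadjusted p under 0.05, and the count in the set was 5.

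The sign turned for 23 genes, *Ifitm2*, *Ifitm3*, *Isg15* and *Bst2* among them, and the cause was not tested. After rescaling, the log2 fold changes were -0.00721 for *Oas1a*, -0.0469 for *Usp18*, -0.013 for *Ifi44*, -0.0255 for *Dhx58*, -0.0307 for *Parp9* and -0.0296 for *Gbp3*. After removal of the length trend they were 0.0091 for *Ifit2*, -0.0343 for *Isg15*, -0.0378 for *Isg20*, 0.0158 for *Oas2*, 0.00851 for *Oas3*, -0.0407 for *Usp18* and -0.0248 for *Bst2*. With GA replicate 1 left out as well, they were 0.0159 for *Ifit2*, -0.0982 for *Isg20*, 0.00741 for *Oas2*, 0.0915 for *Oas3*, 0.00973 for *Irf9*, -0.0575 for *Usp18*, -0.0327 for *Bst2*, 0.0206 for *Rtp4*, -0.026 for *Gbp3*, 0.0391 for *Trim25*, -0.013 for *Ifitm2* and -0.0434 for *Ifitm3*. With 1 library left out, they ran from -0.0384 to 0.0322 for *Ifit2*, -0.242 to 0.0285 for *Ifit3*, -0.0191 to 0.16 for *Isg20*, -0.0669 to 0.0622 for *Oas2*, -0.111 to 0.0984 for *Oas3*, -0.0068 to 0.176 for *Oasl1*, -0.0689 to 0.00345 for *Irf7*, -0.0588 to 0.0486 for *Irf9* and -0.034 to 0.0442 for *Usp18*. For the other genes the range was -0.082 to 0.122 for *Ifi44*, -0.123 to 0.00193 for *Ifih1*, -0.0824 to 0.11 for *Dhx58*, -0.119 to 0.0811 for *Rtp4*, -0.0191 to 0.0846 for *Parp9*, -0.0194 to 0.215 for *Parp14*, -0.0339 to 0.0621 for *Gbp3*, -0.199 to 0.00516 for *Igtp* and -0.103 to 0.0394 for *Trim25*. The depth of the libraries is unknown, so the error of genes near 1 FPKM could not be split into counting error and spread between libraries.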
